A study of Homo sapiens with 6 samples.

Results

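The 10 genes described here are LIN28A, LIN28B, TRIM71, IGF2BP1, IGF2BP2, IGF2BP3, HMGA1, HMGA2, MYC and MYCN, a growth circuit of early embryonic cells built around the RNA-binding protein LIN28 and the microRNA let-7. They were chosen by name, as the LIN28 and let-7 axis with its targets, and all 10 were found among the 60107 gene IDs of the count table. RNA came from H9, an established line of human embryonic stem cells, after directed differentiation toward nephron progenitor cells, which give rise to the filtering units of the kidney. Of the 6 mRNA libraries, 3 came from cells in complete medium with glutamine and 3 from cells kept without glutamine from day 0, and all were collected at day 9. All cells shared the same line and the same differentiation protocol, so the groups differ, per the labels, in glutamine alone. The column headings of the table name days 0 and 9, and the sample descriptions tie the day 0 headings to the cultures with glutamine. Every direction below rests on that tie.

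LIN28A and LIN28B bind the precursors of let-7 and keep them from being cut into the mature microRNA, in part by recruiting enzymes that add uridines to the precursor's end. Mature let-7 in turn pairs with sites in the 3′ untranslated regions (UTRs) of LIN28, IGF2BP, HMGA2, TRIM71 and other transcripts and lowers them, so that LIN28 and let-7 oppose each other. Embryonic and progenitor cells are high in LIN28 and low in let-7, the balance reverses as tissues mature, and in the kidney this switch is known to help set how long nephron progenitors persist. MYC and MYCN, transcription factors that drive growth, lie in the same circuit.

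The sequences that define the circuit are the let-7 seed, bases 2 to 8 of the mature microRNA, and its matches in the transcripts. RefSeq (GRCh38.p14) lists 9 mature let-7 and miR-98 sequences with the same seed, printed here 5′ to 3′ with the seed in capitals because every target match below is a match to those 7 bases. A further 2 annotated microRNAs, miR-4458 and miR-4500, carry the same seed.
let-7a-5p: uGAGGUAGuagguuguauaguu
let-7b-5p: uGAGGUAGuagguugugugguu
let-7c-5p: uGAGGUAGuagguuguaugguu
let-7d-5p: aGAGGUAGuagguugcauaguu
let-7e-5p: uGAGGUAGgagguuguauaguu
let-7f-5p: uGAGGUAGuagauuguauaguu
let-7g-5p: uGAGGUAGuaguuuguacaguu
let-7i-5p: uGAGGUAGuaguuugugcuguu
miR-98-5p: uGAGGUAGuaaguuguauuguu

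LIN28 is known to grip a GGAG motif in the loop of let-7 precursors. Of the 12 let-7 and miR-98 hairpins in RefSeq, 9 held GGAG between the 5′ and 3′ arms and 3 did not, those of let-7a-3, let-7b and miR-98. A pair with the motif and a pair without it show the difference, with GGAG between the arms in capitals.
let-7a-1 hairpin: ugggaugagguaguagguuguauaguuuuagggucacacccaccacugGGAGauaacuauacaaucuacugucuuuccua
let-7g hairpin: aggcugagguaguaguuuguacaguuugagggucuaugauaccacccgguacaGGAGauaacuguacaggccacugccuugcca
let-7a-3 hairpin: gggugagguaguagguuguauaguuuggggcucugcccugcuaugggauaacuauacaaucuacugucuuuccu
let-7b hairpin: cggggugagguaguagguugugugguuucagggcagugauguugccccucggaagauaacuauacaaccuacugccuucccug

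In the 3′ UTRs of the 10 genes (GENCODE 29 on GRCh38, 1 principal transcript per gene, transcript strand only), the 7-base match CTACCTC to the seed occurred 22 times, in 8 genes. In 13 of those places, spread over 7 genes, an A followed it, the 8-base match CTACCTCA that pairs best. MYC and MYCN had no match in these UTRs. TRIM71 had 4 matches of 8 bases in a UTR of 6015 bases, IGF2BP1 had 3 in 6206 bases and LIN28B had 2 in 4549 bases. LIN28A, HMGA2, IGF2BP2 and IGF2BP3 had 1 each, HMGA2 with 3 further matches of 7 bases, and HMGA1 had only 1 match of 7 bases. A match is a stretch of letters, and nothing in these data shows that let-7 occupied it. For each gene with an 8-base match, 1 is printed below (both for LIN28B), with the match in capitals and the surrounding transcript in lower case.
LIN28A, chr1:26427347-26427372, plus strand: tgcacagcctattgaaCTACCTCAtt
LIN28B, chr6:105078811-105078836, plus strand: tacccggttgcaaagtCTACCTCAtg
LIN28B, chr6:105081420-105081445, plus strand: tgtttacagcaaaaggCTACCTCAta
TRIM71, chr3:32891967-32891992, plus strand: caacattgcttaagtcCTACCTCAtc
IGF2BP1, chr17:49051060-49051085, plus strand: ctgtgtgcgaagtaaaCTACCTCAag
IGF2BP2, chr3:185644218-185644243, minus strand: aaacacacagaagaagCTACCTCAgg
IGF2BP3, chr7:23311793-23311818, minus strand: gtgcatttttactcaaCTACCTCAgg
HMGA2, chr12:65963297-65963322, plus strand: cgccaacgttcgatttCTACCTCAgc

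Each library held 78220507 to 84746566 counts, and the least abundant of the 10 genes, MYC, had at least 2237 counts in every library, so spread between libraries and not counting limits the precision. Replicate 1 with glutamine stands apart from replicates 2 and 3 of its group and lies near the libraries without glutamine for most of the 10 genes, so the result for each of the 10 is given with it and without it. Nephron progenitor markers were present in all libraries, and 13 of 13 listed markers were tested. Their summed level was 984 to 1670 CPM (read counts scaled to library size, with TMM factors) with glutamine and 1550 to 2070 CPM without. The fitted change went both ways among these markers, up for 8 and down for 5. In 4 every library without glutamine exceeded every library with it, and in 2 the reverse held. Without replicate 1 with glutamine, edgeR called 8 higher and 5 lower at an adjusted p under 0.05, beside 22.3% and 19% of all genes. The sum therefore does not stand for each marker. Markers of presomitic and somite cells summed to 75 CPM in the first library with glutamine, to 204 and 209 CPM in the other two, and to 80.8 to 118 CPM without glutamine, with 7 of 7 tested. Markers of the posterior streak summed to 4.57, 17.6 and 17.7 CPM with glutamine and to 5.45 to 6.25 CPM without, with 5 of 6 tested and NKX1-2 at 0 in all libraries. The endoderm list summed to 17.7, 1.59 and 1.49 CPM with glutamine and 23 to 28.7 CPM without. Of this list 4 of 6 were tested. Without overlap between groups, 3 were higher and 1 lower, beside 17.3% and 16.9% of all genes tested. The endoderm markers FOXA2 and AFP had at most 4 counts in any library. Pluripotency markers summed to 135 to 197 CPM with and 226 to 285 CPM without, mostly from DPPA4, while NANOG had at most 1 count and POU5F1 at most 13. The somite and streak sums, like the LIN28 genes below, were highest in replicates 2 and 3 with glutamine. The endoderm, nephron progenitor and pluripotency sums were lowest in those libraries. Their part in those results was not tested. In bulk RNA, fewer cells of a type and less RNA per cell cannot be told apart. Nothing in the labels says whether the 3 libraries of a group came from separate cultures, so the p-values measure only the spread between these samples, which may be technical.

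Withdrawal of glutamine left 8 of the 10 genes at a lower fitted level and HMGA2 and MYCN at a higher one. The median log2 fold change, without over with glutamine, was -0.30 over the 10 genes and 0.001 over all 22613 genes tested. None of the 10 passed an adjusted p of 0.05 in edgeR's quasi-likelihood test, where 0.00442% of all genes did. At an unadjusted p under 0.05 in edgeR there were 6 of 10 (LIN28A, LIN28B, TRIM71, IGF2BP2, IGF2BP3 and HMGA2), beside 6718 of the 22613 genes tested. DESeq2 called LIN28A and HMGA2, and limma-voom called none. Without replicate 1 with glutamine, edgeR called 9 of the 10, 8 lower and HMGA2 higher. Over all genes, that fit called 41.3%, of which those higher were 22.3% of the genes tested and those lower 19%. The groups did not overlap for LIN28A, IGF2BP3 and HMGA2, where the share over all genes tested was 34.2%, so the count of 3 in 10 is near the background.

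**Figure D1:**
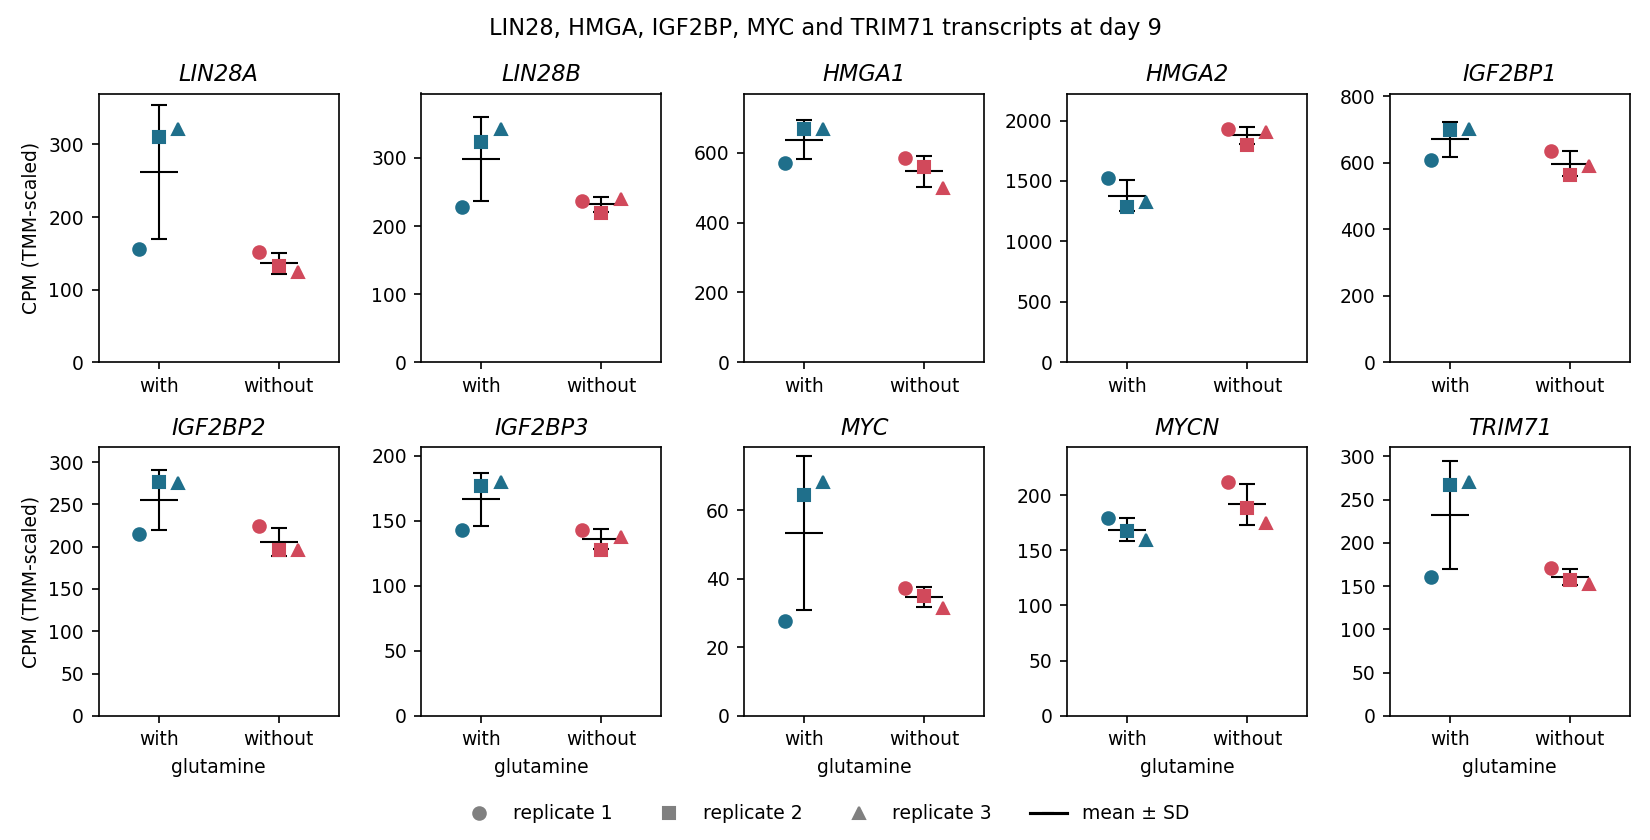
Expression of the 10 genes in each library, in CPM after TMM scaling (vertical axes start at 0), for cells with and without glutamine. Each symbol is 1 library and the bar is the mean ± SD of 3. Replicate 1 with glutamine (circle) lies with the libraries without glutamine for LIN28A (156 CPM), LIN28B (229 CPM) and TRIM71 (160 CPM), and between the groups for HMGA2 (1522 CPM).

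LIN28A (ENSG00000131914, chr1:26410778-26429722), an RNA-binding protein of embryonic cells that blocks let-7 maturation, was at 156, 310 and 322 CPM with glutamine (replicates 1 to 3 in order, as below) and at 152, 132 and 125 CPM without. Replicates 2 and 3 with glutamine stood far above the rest, and replicate 1 lay just above the highest library without glutamine, so the groups did not overlap. The log2 fold change was -0.95 ± 0.26 (SE, adjusted p 0.0829 by edgeR). Without replicate 1 with glutamine it was -1.21 ± 0.09 (SE, adjusted p 5.32e-06 by edgeR), which leaves 0.432 of the level with glutamine.

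LIN28B (ENSG00000187772, chr6:104936616-105083332), the paralog of LIN28A that also blocks let-7 maturation, was at 229, 324 and 343 CPM with glutamine and at 237, 219 and 240 CPM without. Here the groups overlapped, since replicate 1 with glutamine fell among the libraries without. LIN28B had a log2 fold change of -0.36 ± 0.15 (SE, adjusted p 0.157 by edgeR), and of -0.52 ± 0.07 (SE, adjusted p 0.000291 by edgeR) without that replicate. Both paralogs were thus lower in the same libraries, LIN28A by the larger factor: the ratio of LIN28A to LIN28B in CPM was 0.682, 0.956 and 0.938 with glutamine and 0.640, 0.603 and 0.520 without.

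TRIM71 (ENSG00000206557, chr3:32818018-32897826), an RNA-binding ubiquitin ligase of early embryonic cells and a classical let-7 target, was at 160, 266.5 and 270 CPM with glutamine and at 171, 157 and 153 CPM without. Its pattern over the libraries was that of LIN28B, with replicate 1 with glutamine inside the range of the libraries without. Fitted, this gave a log2 fold change of -0.53 ± 0.19 (SE, adjusted p 0.128 by edgeR), and -0.74 ± 0.07 (SE, adjusted p 3.53e-05 by edgeR) without that replicate.

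The IGF2BP proteins bind messenger RNAs, IGF2 among them, and protect or localize them. IGF2BP1 (ENSG00000159217, chr17:48997412-49055650) was the most abundant of the family, at 610, 698 and 703 CPM with glutamine and 637, 562 and 590 CPM without. IGF2BP2 (ENSG00000073792, chr3:185643739-185825056) was at 214, 276 and 276 CPM with and 225, 196.5 and 196.3 CPM without. IGF2BP3 (ENSG00000136231, chr7:23310209-23470467) was at 143, 176.5 and 180 CPM with and 143, 128 and 138 CPM without. In all 3 genes replicates 2 and 3 with glutamine were the highest libraries, and replicate 1 with glutamine overlapped the other group except in IGF2BP3, where it lay just above it. In log2 fold change this came to -0.17 (SE 0.09) for IGF2BP1, -0.31 (SE 0.12) for IGF2BP2 and -0.29 (SE 0.10) for IGF2BP3, at edgeR adjusted p of 0.229, 0.136 and 0.122. Without replicate 1 with glutamine they were -0.23, -0.42 and -0.39, all called, at edgeR adjusted p of 0.0287, 0.00192 and 0.00188. The library kit was stranded, per the labels. The exons of MALSU1, on the opposite strand, overlap those of IGF2BP3 over 1521 bases. MALSU1 had at most 17% of the counts of IGF2BP3, and since the strand setting of the counting is not given in the sources used here, IGF2BP3 values are less certain than the others.

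HMGA1 and HMGA2 encode small chromatin proteins that bend DNA at AT-rich stretches, and HMGA2 is a classical target of let-7. Their fold changes had opposite signs. HMGA2 (ENSG00000149948, chr12:65824131-65966295) was at 1522, 1281 and 1328 CPM with glutamine and at 1934, 1798 and 1905 CPM without. Every library deprived of glutamine exceeded every supplied one, and replicate 1 with glutamine lay 0.42 of the way, on the log2 scale, from the mean of the other 2 of its group to the mean of those without. The log2 fold change of HMGA2 was 0.45 ± 0.09 (SE, adjusted p 0.0682 by edgeR), a ratio of 1.36, and 0.53 ± 0.07 (SE, adjusted p 0.000255 by edgeR) without that replicate. HMGA1 (ENSG00000137309, chr6:34236873-34246231) was at 572, 670 and 669 CPM with glutamine and 586, 559 and 499 CPM without, with overlapping groups. Its log2 fold change was -0.22 ± 0.10 (SE, adjusted p 0.178 by edgeR), and -0.29 ± 0.08 (SE, adjusted p 0.0159 by edgeR) without replicate 1 with glutamine. HMGA2 exceeded HMGA1 in CPM by a factor of 2.66, 1.91 and 1.98 with glutamine and of 3.30, 3.21 and 3.82 without, so the ratio did not overlap between groups.

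MYC and MYCN, related transcription factors that drive growth, also differed in sign. MYC (ENSG00000136997, on chromosome 8) was at 27.6, 64.6 and 68.2 CPM with glutamine and at 37.3, 35.0 and 31.6 CPM without. Replicate 1 with glutamine was the lowest of all 6 libraries and lay beyond the group without glutamine, so the lower fitted level without glutamine rests on replicates 2 and 3. For MYC the fitted log2 fold change was -0.63 ± 0.31 (SE, adjusted p 0.219 by edgeR), and -0.94 ± 0.08 (SE, adjusted p 2.26e-05 by edgeR) without replicate 1. MYCN (ENSG00000134323, chr2:15940564-15947007) was at 179, 167 and 159 CPM with glutamine and at 212, 188 and 175 CPM without, with overlap between groups. For MYCN the log2 fold change was 0.18 ± 0.09 (SE, adjusted p 0.219 by edgeR), and 0.23 ± 0.09 (SE, adjusted p 0.0555 by edgeR) without replicate 1 with glutamine, so it alone of the 10 was not called in that fit. MYCN was the more abundant in every library, by a factor of 6.51, 2.59 and 2.33 over MYC in CPM with glutamine and of 5.38 to 5.68 without.

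**Figure D2:**
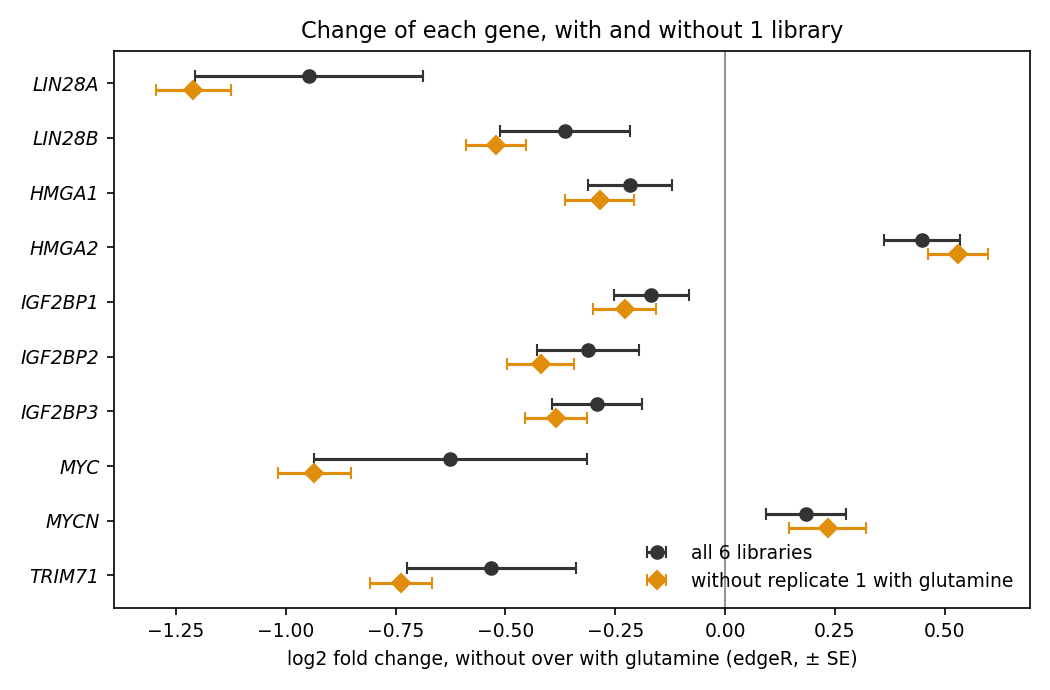
The log2 fold change of each of the 10 genes, without over with glutamine, from edgeR's fit of all 6 libraries (circles) and of the 5 libraries left without replicate 1 with glutamine (diamonds), each with its SE. HMGA2 (0.45) and MYCN (0.18) lie to the right of 0, the other 8 to the left, and each estimate is farther from 0 without that library.

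Levels were also compared between genes per kilobase of transcript. At the top with glutamine, HMGA1 at 332 ± 29.2 and HMGA2 at 308 ± 28.6 CPM per kilobase (SD, n = 3) did not differ beyond their spread. Without glutamine HMGA2 at 420 ± 16 lay above HMGA1 at 285 ± 23.1 CPM per kilobase, with no overlap. Next came IGF2BP1 at 81.0 ± 6.34, IGF2BP2 at 69.3 ± 9.64, LIN28A at 65.5 ± 23.1, MYCN at 64.8 ± 3.88, LIN28B at 54.2 ± 11.1 and IGF2BP3 at 39.2 ± 4.76 CPM per kilobase with glutamine, and each neighbour in this order differed from the next by less than the larger SD of the pair except IGF2BP1 from IGF2BP2 and IGF2BP3 from LIN28B. TRIM71 at 26.7 ± 7.20 and MYC at 22.6 ± 9.51 CPM per kilobase came last and did not differ beyond their spread. Without glutamine LIN28A stood at 34.0 ± 3.48, below LIN28B at 42.1 ± 2.05 CPM per kilobase. In replicate 1 with glutamine LIN28A was also below LIN28B, at 38.9 and 41.5 CPM per kilobase, and in replicates 2 and 3 it was above. Lengths are those of 1 principal transcript each, so a gene with several isoforms is placed only approximately.

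Genes that make or handle microRNAs, a list of 23, split both ways: without overlap between groups, 2 lay above and 7 below their levels with glutamine, beside 17.3% and 16.9% of all genes tested, and the median log2 fold change was -0.10. None was called by edgeR, and without replicate 1 with glutamine 4 were called higher and 5 lower, beside 22.3% and 19% of all genes. TUT4, a uridylyl transferase recruited by LIN28 to let-7 precursors, was at 180.5, 227.6 and 212.1 CPM with glutamine and at 157, 152.5 and 163.5 CPM without, a log2 fold change of -0.39 ± 0.10 (SE, adjusted p 0.0746 by edgeR), and of -0.48 without replicate 1 with glutamine (adjusted p 0.000437 by edgeR). Its paralog TUT7, named after its values were seen, was at 46.9 to 51.1 CPM with and 39 to 46.9 CPM without, with overlap between groups. DIS3L2, the exonuclease that degrades uridylated let-7 precursors, was at 41.2 to 44.2 CPM with and 33.7 to 37.4 CPM without, a log2 fold change of -0.26 (SE 0.08). AGO4, an Argonaute protein that holds mature microRNAs, had a log2 fold change of -0.22 (SE 0.06). DGCR8, the partner of DROSHA in cutting primary microRNA transcripts, was higher, at 54.4 to 65.6 CPM with and 71.0 to 74.3 CPM without (log2 fold change 0.30, SE 0.09), as was the helicase DDX5 (0.26, SE 0.09). DICER1, which makes the last cut, was at 320 to 345 CPM with glutamine and 276 to 307 CPM without.

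Mature let-7 was not measured, since these are mRNA libraries. Of 20 listed let-7 hosts and precursor genes, 17 were matched to the table and 9 had enough counts to be tested. Their median log2 fold change was 0.11, with 1 higher and 2 lower without overlap, beside 17.3% and 16.9% of all genes tested. None was called by edgeR. Without replicate 1 with glutamine 1 was called higher and 1 lower, beside 22.3% and 19% of all genes. MIR99AHG, which holds let-7c, was at 30.4, 27.6 and 25.4 CPM with glutamine and 22.8, 18.2 and 25.04 CPM without (log2 fold change -0.34, SE 0.13). MIRLET7IHG, which holds let-7i, was at 12.4 to 13.9 CPM with and 9.86 to 11.6 CPM without (-0.28, SE 0.10). WDR82, whose gene holds let-7g, was at 219 to 232 CPM with and 235 to 257 CPM without (0.11, SE 0.07). MIR100HG, which holds let-7a-2 and was picked out after its values were seen, was at 23.9, 7.36 and 6.34 CPM with glutamine and 20.6, 24.4 and 28.9 CPM without. Its log2 fold change of 0.98 (SE 0.48) became 1.85 without replicate 1 with glutamine (edgeR adjusted p 1.15e-05).

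The other known let-7 targets, a list of 25, split both ways, with 8 above and 6 below their levels with glutamine at no overlap, beside 17.3% and 16.9% of all genes tested, and a median log2 fold change of 0.02. None was called by edgeR. Without replicate 1 with glutamine 7 were called higher and 8 lower, beside 22.3% and 19% of all genes. NR6A1, an orphan nuclear receptor of early embryos, was at 58.4, 119 and 117 CPM with glutamine and 50.6, 42.5 and 41.8 CPM without, a log2 fold change of -1.13 ± 0.26 (SE, adjusted p 0.0721 by edgeR). FIGN was at 89.1 to 120.5 CPM with and 69.7 to 76.1 CPM without (-0.52, SE 0.11). CCND2, a D-type cyclin, was at 545 to 715 CPM with and 467 to 504.5 CPM without (-0.42, SE 0.11). These 3 went the way of LIN28. The opposite way went CDK6, the kinase partner of D-type cyclins, at 84.2, 45.1 and 40.6 CPM with glutamine and 141, 146 and 143 CPM without (log2 fold change 1.34 ± 0.26 SE, adjusted p 0.0687 by edgeR). CCND1 was at 364.5, 88.6 and 96.4 CPM with and 559.5, 467 and 412 CPM without (1.39, SE 0.53), and PBX3, a homeodomain cofactor, at 40.0, 17.1 and 15.8 CPM with and 46.1 to 47.0 CPM without (0.93, SE 0.34). CCND1 and CCND2, paralogs with the same role in the cell cycle, thus had fold changes of opposite sign. CCND1 was 2.38 on the log2 scale without replicate 1 with glutamine, PBX3 1.4997, and both were then called (edgeR adjusted p 8.27e-07 and 7.05e-07). In the same fit CDK6 was at 1.74 and NR6A1 at -1.39 (edgeR adjusted p 2.7e-07 and 2.94e-06), and FIGN and CCND2 were called lower.

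**Figure D3:**
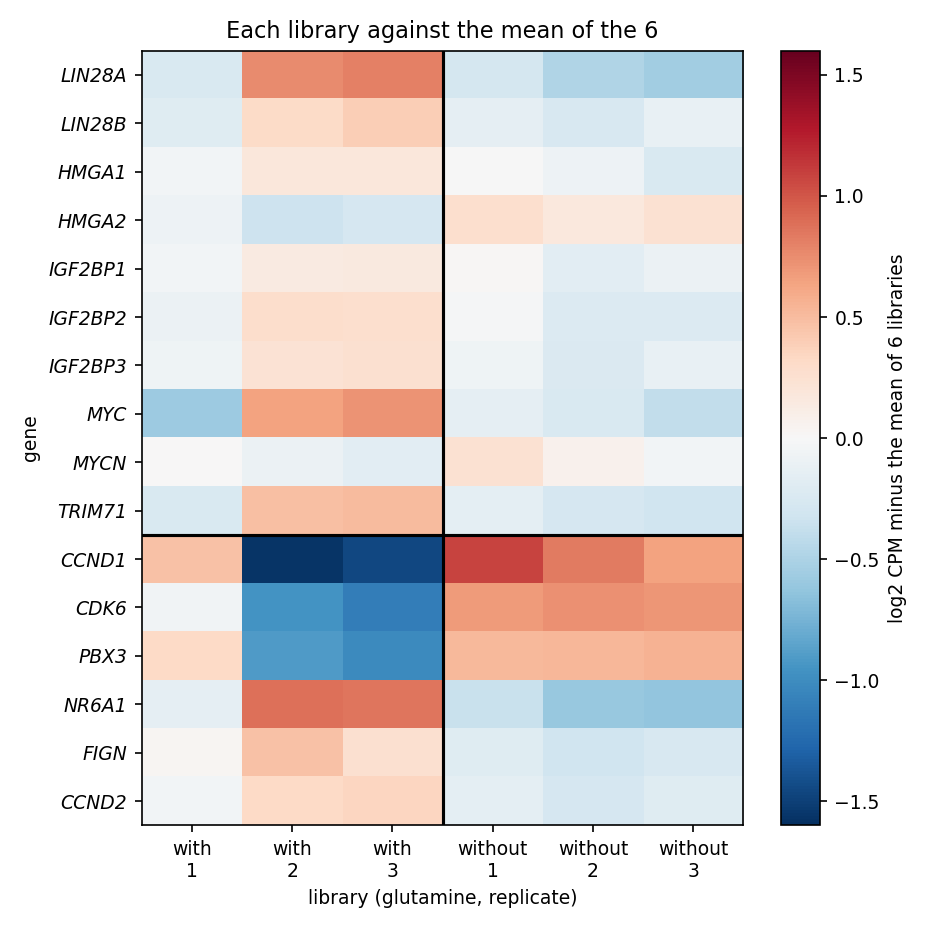
Level of the 10 genes (above the line) and of 6 other let-7 targets (below it) in each library, as log2 CPM minus the mean of the 6 libraries (red higher, blue lower). Replicates 2 and 3 with glutamine stand apart from the libraries without in most of these genes, and replicate 1 with glutamine lies nearer the latter for LIN28A (-0.24) and CCND1 (0.47) but not for HMGA2.

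Across the transcriptome, fold changes were set beside the number of let-7 matches of 8 bases in the 3′ UTR. The median log2 fold change was 0.029 over 14804 genes with no match, -0.013 over 536 genes with 1, -0.327 over 16 genes with 2 and -0.313 over 8 genes with 3 or more. Fitted changes were below 0 in 46% of the genes with no match and in 7 of the 8 with 3 or more. Apart from the 10 genes themselves, 15 genes with 2 matches had a median of -0.308 and 6 genes with 3 or more a median of -0.313. Among the genes with the most matches were TRIM71 with 4, and FIGN, FIGNL2, IGDCC3, IGF2BP1, SDR42E1 and SMC1A with 3. IGDCC3, a surface protein of the immunoglobulin superfamily, was at 608, 736 and 771 CPM with and 650, 506 and 568 CPM without. SMC1A, a cohesin subunit, was the exception, at 256, 244 and 257 CPM with and 267, 246 and 262 CPM without. Of the 16 genes with 2 matches, 7 were lower without overlap between groups, NR6A1 and BACH1 among them. A further 2 were higher without overlap, ADAMTS15 and DDA1. LIN28B was lower with overlap. Among genes with no match, 15.6% were lower and 20.8% higher without overlap. Genes with matches have longer UTRs, with a median of 1023 bases where there was no match and of 6110.5 bases where there were 3 or more. Within UTRs of at least 4000 bases, a limit set after seeing the data, the medians were -0.029 over 1433 genes with no match, -0.033 over 203 with 1, -0.365 over 9 with 2 and -0.393 over 6 with 3 or more. When all 7-base matches were counted instead, the median at 2 matches was -0.030 over 133 genes and that at 3 or more was -0.235 over 31. The classes with several matches hold few genes, and no gene in them was called by edgeR. Genes that carry more matches share other features, and the part of let-7 in these values was not tested.

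**Figure D4:**
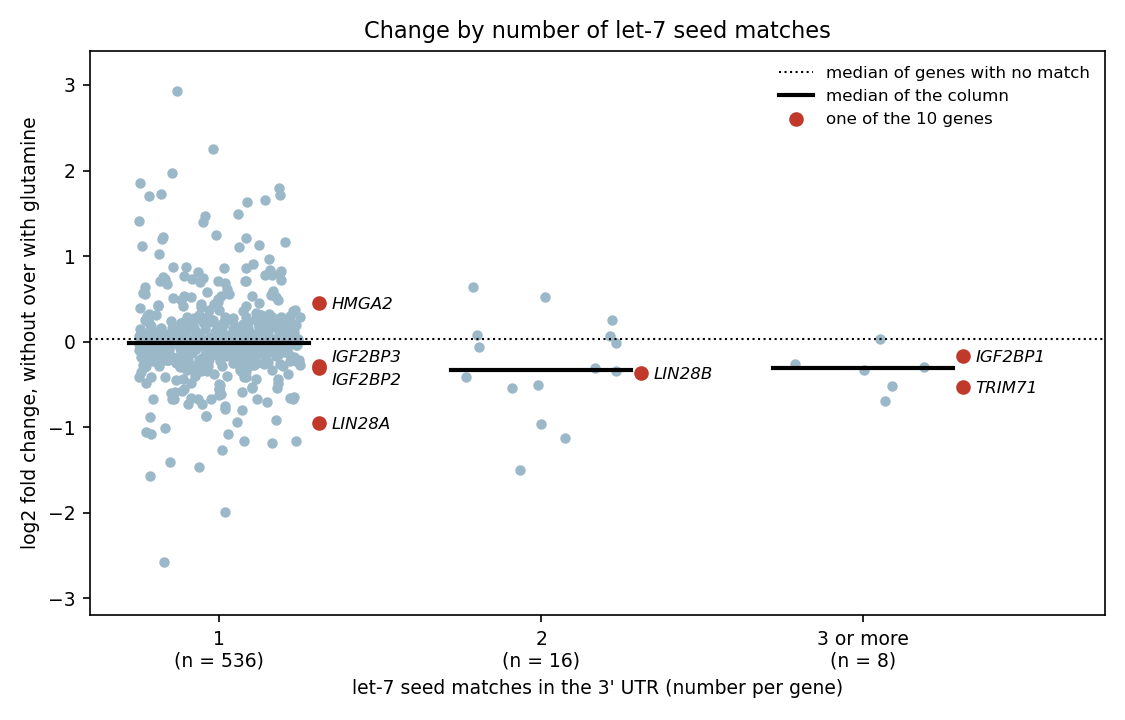
The log2 fold change, without over with glutamine, of each tested gene with 1, 2 or 3 or more let-7 seed matches of 8 bases in its 3′ UTR. Bars are medians (-0.013, -0.327 and -0.313), the dotted line is the median of genes with no match (0.029), and red points are those of the 10 genes that have a match.

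MYC works as a dimer with MAX against the MXD and MNT repressors. Of 24 listed partners and regulators, 5 lay above and 3 below their levels with glutamine at no overlap, beside 17.3% and 16.9% of all genes tested, and the median log2 fold change was 0.001. None was called by edgeR, and without replicate 1 with glutamine 8 were called higher and 2 lower, beside 22.3% and 19% of all genes. MXD3, AURKA and SKP2 were among the 8, and MAX, MGA and MYCBP2 were not called. MAX itself was at 41.5 to 44.8 CPM with and 40.0 to 41.4 CPM without (-0.09, SE 0.07). MXD3, a repressor that competes for MAX, was at 10.7 to 12.8 CPM with glutamine and 15.0 to 21.1 CPM without (0.66 ± 0.15 SE, adjusted p 0.0706 by edgeR). AURKA, a mitotic kinase that stabilizes MYCN protein, was at 37.1 to 47.7 CPM with and 51.1 to 54.4 CPM without (0.36, SE 0.11), and SKP2, a ubiquitin ligase subunit that acts on MYC, was at 143 to 154 CPM with and 172 to 179 CPM without (0.25, SE 0.06). MGA and MYCBP2 were the other lower genes, at log2 fold changes of -0.18 and -0.21.

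Known MYC targets in ribosome making and growth, a list of 38, had a median log2 fold change of -0.07, with 2 above and 1 below at no overlap, beside the background of 17.3% and 16.9%. None was called by edgeR. Without replicate 1 with glutamine the median was -0.16, with 2 called higher and 11 lower, beside 22.3% and 19% of all genes. CAD, which starts pyrimidine synthesis from glutamine, was at 164.5, 201 and 206 CPM with glutamine and 158, 150 and 154 CPM without (-0.31 ± 0.10 SE, adjusted p 0.101 by edgeR), and was called without replicate 1 with glutamine (-0.40, adjusted p 0.000882 by edgeR). RRS1, a ribosome assembly factor, and TFRC, the transferrin receptor, were the 2 genes higher without overlap. With all libraries they were at 0.25 (SE 0.15) and 0.19 (SE 0.08). RRS1 was at 13.9, 19.8 and 19.7 CPM with glutamine and 21.4, 21.9 and 20.0 CPM without. Without replicate 1 with glutamine RRS1 was at 0.10 and not called (adjusted p 0.354 by edgeR). TFRC was at 0.24 in that fit and called (adjusted p 0.0267 by edgeR). LDHA and NPM1, picked out after their values were seen, were, like MYC, highest in replicates 2 and 3 with glutamine. LDHA, which makes lactate from pyruvate, was at 391.9, 938 and 1036 CPM with glutamine and 486, 603 and 506 CPM without. NPM1, a nucleolar chaperone, was at 479, 658 and 751 CPM with and 457, 505 and 512 CPM without.

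In the IGF and insulin pathway, the setting in which IGF2BP proteins were named, 21 of 22 listed genes were tested. Of these, 7 lay above and 3 below their levels with glutamine at no overlap, beside 17.3% and 16.9% of all genes tested, and the median log2 fold change was 0.26. None was called by edgeR, and without replicate 1 with glutamine 11 were called higher and 1 lower, beside 22.3% and 19% of all genes, with a median of 0.41. IGF2, the growth factor whose message IGF2BP proteins bind, was at 5595, 3486 and 3086 CPM with glutamine and 4988, 5491 and 5971 CPM without, with overlap between groups (log2 fold change 0.44 ± 0.22 SE, adjusted p 0.223 by edgeR). Without replicate 1 with glutamine it was 0.74 and called (adjusted p 0.000227 by edgeR). H19, the noncoding RNA next to IGF2, was at 6235 to 7184 CPM with and 7082 to 7738 CPM without. PAPPA2, a protease that frees IGF from its binding proteins, was at 7.06, 1.63 and 1.95 CPM with glutamine and 9.58, 11.7 and 16.6 CPM without (1.83 ± 0.54 SE, adjusted p 0.0910 by edgeR), and 2.82 without that replicate (adjusted p 2.2e-05 by edgeR). IGFBP5 was at 326 to 354 CPM with and 419 to 910 CPM without (0.98, SE 0.25), and IRS2, an adaptor of the insulin receptor and a let-7 target, at 23.3 to 31 CPM with and 34.5 to 54.6 CPM without (0.73, SE 0.18). The insulin receptor INSR was lower, at -0.20 (SE 0.09). IGF1R, the main IGF receptor, was at 251 to 282 CPM with and 255 to 288 CPM without.

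**Figure D5:**
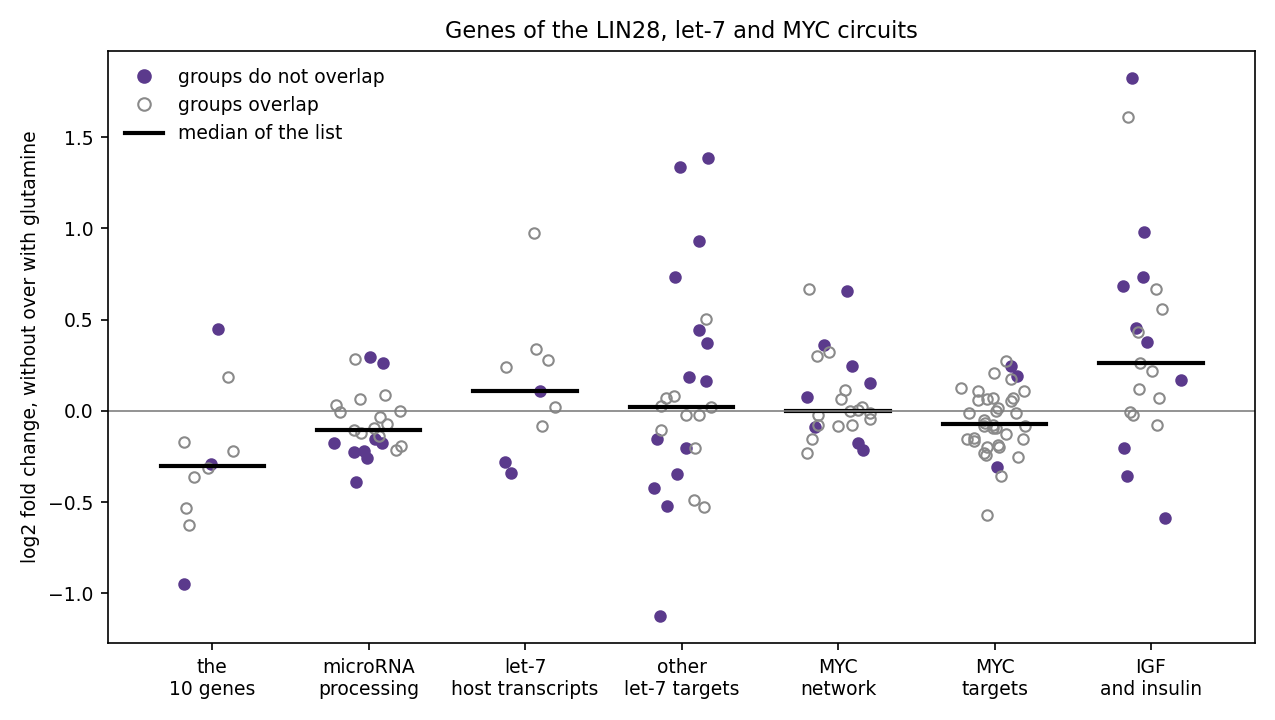
The log2 fold change, without over with glutamine, of each tested gene in the circuit, by list. Filled points are genes whose groups do not overlap, open points are genes whose groups do, and bars are list medians (-0.30 for the 10 genes, -0.10 for microRNA processing, 0.26 for IGF and insulin).

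By Pearson's r of log2 CPM over the 6 libraries, among 16881 genes with a mean of at least 50 counts, the genes most like LIN28A were PAQR3, DACH2 and HOXB9 (r of 0.9994, 0.9993 and 0.9992). Those most like LIN28B were ZYG11B, ZZZ3 and EIF3A (r of 0.9991, 0.9978 and 0.9973), and those most like HMGA2 were MACROD2, APC2 and ECT2 (r of 0.9973, 0.9972 and 0.9971). DACH2 was at 34.7, 109 and 110 CPM with glutamine and 33.3, 27.7 and 23.8 CPM without, and HOXB9 at 328, 527 and 545 CPM with and 319, 283 and 282 CPM without. These r describe 6 points in which replicates 2 and 3 with glutamine stand apart, so many genes reach a high r: 163 genes exceeded 0.99 with LIN28A.

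Apart from MALSU1 at IGF2BP3, the overlapping transcripts had few counts. MYCNOS, antisense to MYCN, was at 4.89 to 5.64 CPM with and 5.47 to 6.85 CPM without, at most 3.24% of the counts of MYCN, and HMGA2-AS1 had at most 0.413% of the counts of HMGA2. The processed copies of HMGA1 that passed the filter had at most 0.767 CPM. Of the 10 genes, 6 had RefSeq promoters in the table used (9 promoters, each 250 bases before to 50 after a start). The E-box CACGTG, bound by MYC with MAX and reading the same on both strands, occurred in 2 of the 9, those of LIN28B and IGF2BP3, and in 7.26% of all 35116 promoters.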

How the data were processed

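The authors deposited raw counts per Ensembl gene, whole numbers with 1 column per library, used here. Their normalized table was not used. The submitters' processing notes name cutadapt, Trim Galore, FastQC, STAR 2.5.2b and DESeq2, with GRCh38. The counter, annotation and strand setting are not given in the sources used here. Symbols and positions came from GENCODE 29 (GRCh38), checked against the members by gene ID.

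The test was the quasi-likelihood test of edgeR 4.0.16 in R 4.3.3, after filterByExpr and TMM scaling and with the legacy and robust options off. Adjustment was Benjamini-Hochberg over all 22613 genes tested, at a threshold of 0.05. SE is the absolute log2 fold change over the square root of F. The alternatives used DESeq2 1.42.0 and limma 3.58.1. The test was also run on simulated data. No simulated library departed from its group across many genes, as replicate 1 with glutamine does, so that check does not cover such a library. The UTR is that of the transcript with the best APPRIS principal rank, then the longest UTR.

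The 10 genes, the lists and the tests were chosen with earlier results of these data known. The rule names all 10 genes, in each list the 3 highest and 3 lowest genes by log2 fold change without overlap between groups whose higher group averaged 50 counts or more, the 3 genes most like LIN28A, LIN28B and HMGA2, and antisense and copy genes. DICER1, TUT7, MIR100HG, LDHA, NPM1, IGF1R, IGF2, H19 and the genes with several let-7 matches were named after their values were seen. Same-numbered libraries did not deviate together (r of -0.021, 0 and 0.028). Results on some genes are not reported here.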

Additional observations from a re-analysis of the deposited data

How the results depend on the processing

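The direction of all 10 genes held under each of the 16 alternatives run. Of 160 values, 149 kept their side of the threshold and 11 became called: 9 without replicate 1 with glutamine, and LIN28A and HMGA2 under DESeq2 (adjusted p 0.00326 and 0.00174). Members called were therefore 0 with all libraries, 2 under DESeq2 and from 0 to 9 with 1 library left out.

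Over all genes, 1 was called with all libraries. The count was 0 under upper quartile scaling, library size only, limma-voom and edgeR's legacy setting, 2 with no filter, 3041 under DESeq2, and from 0 to 9573 with 1 library left out, highest without replicate 1 with glutamine and 17 without replicate 1 of the group without. With the replicate block it was 0, as was the count of the 10 genes. Not every library correlated best with its own number, and r between the groups ran only from -0.082 to 0.075. Such r, from 3 libraries per group, cannot settle whether the numbers pair the libraries.

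Upper quartile scaling moved the median of microRNA processing to -0.147 and that of the MYC network to -0.043, and no filter moved the let-7 hosts to 0.007. With 1 library left out, the median ran from -0.132 to -0.049 for microRNA processing, from -0.034 to 0.124 for let-7 hosts, from -0.039 to 0.036 for other let-7 targets, from -0.014 to 0.033 for the MYC network, from -0.162 to -0.001 for MYC targets (the latter without replicate 3 with glutamine) and from 0.268 to 0.426 for IGF and insulin signalling. By number of let-7 matches it ran from 0.016 to 0.036 at 0 matches, from -0.429 to -0.26 at 2 and from -0.504 to -0.226 at 3 or more. UTRs of at least 4000 bases gave -0.029 at 0 matches, and matches of 7 bases gave -0.03 at 2. The cause of these shifts was not tested.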
